A study of Mus musculus with 18 samples.

Results

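The 58 genes described here encode parts of the machinery that copies DNA and divides the cell, and their RNA was measured in whole mouse kidney. They were chosen by name as 17 genes whose transcripts peak around S phase and 41 genes whose transcripts peak in G2 and mitosis (G2/M), and all 58 matched a gene among the 41967 Ensembl gene IDs of the count table. The list had been taken up with the difference between genotypes at 7 weeks in view. The 7-week values are therefore a description of what chose the genes. They are given without p-values, and counts of genes past a threshold at 7 weeks are part of that description and support nothing. The values at 13 and 24 weeks were tested, although earlier results at those ages were also known when the list was made.

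The mice were C57BL/6 and were either WT or Clr-f-/-, a line without functional Clr-f, a C-type lectin-like surface protein encoded by Clec2h. In Clec2h, exon 3, exon 4 and a stretch of exon 5 were removed by homologous recombination in Bruce-4 embryonic stem cells, and the selection cassette was removed by a cross to mice with Cre under the CMV promoter. The deletion is therefore germline and is carried by every cell, and the Clr-f-/- mice obtained lacked the Cre transgene. Kidneys came from mice aged 7, 13 or 24 weeks, 3 for each genotype and age, which gave 18 libraries of total kidney RNA with 1 mouse each. The 3 animals of each genotype and age were described as matched for age and sex.

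Adult kidney tubule cells divide rarely, and a dividing cell switches these genes on in waves. Licensing proteins such as the Mcm helicase are loaded on DNA before S phase, and the helicase is activated in S phase. Nucleotides are supplied by enzymes such as ribonucleotide reductase. Later the cyclin B and Cdk1 kinase, the spindle motors, the kinetochore and the anaphase-promoting complex carry the cell through mitosis. Many S-phase genes are controlled through E2F sites. Many G2/M genes are controlled through a cell cycle genes homology region (CHR), often with CCAAT boxes upstream of it, to which repressing and activating complexes around MuvB bind.

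The promoters of the S-phase and the G2/M genes differed in how often they held certain short words, a property that the choice of genes did not use. RefSeq promoter windows (GRCm38.p6, 250 bases before to 50 bases after the annotated start) were found for 49 of the 58 genes, 14 of S phase and 35 of G2/M, and were searched on both strands. A CHR word, TTTGAA or TTCGAA, was found in 28 of 35 G2/M promoters (80%) and in 2 of 14 S-phase promoters (14.3%), against 16.2% of 10182 tested genes and 21.7% of 27025 genes with a window. An E2F word (TTTCCCGC, TTTCGCGC, TTTGCCGC or TTTGGCGC) was found in 6 of 14 S-phase promoters (42.9%) and in 1 of 35 G2/M promoters (2.86%), that of Cdk1, against 4.39% of tested genes. A CCAAT word was more evenly spread, in 57.1% of S-phase and 77.1% of G2/M promoters against 42.3% of tested genes, but CHR and CCAAT words stood together in 71.4% of G2/M promoters against 14.3% of S-phase promoters and 7.77% of tested genes. E2F words can overlap each other where forward and reverse matches share bases, and a match is a description of the letters and not a bound site.

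The windows of 2 S-phase and 5 G2/M genes are printed to show these letters beside the RNA values. Pcna, Mcm6, Spc25, Kif23 and Mki67 are among the 4 genes of each class with the highest mean level over the 18 libraries, and Top2a and Ccnb1 were added after their values were seen. Capitals mark CHR, E2F and CCAAT words on either strand, and each sequence runs 5′ to 3′ along its gene's strand. The windows lie at chr2:132253131-132253430 for Pcna, chr1:128359656-128359955 for Mcm6, chr2:69206164-69206463 for Spc25, chr9:61946750-61947049 for Kif23, chr7:135716330-135716629 for Mki67, chr11:99024140-99024439 for Top2a and chr13:100786437-100786736 for Ccnb1, all on the minus strand of GRCm38.p6.
Pcna: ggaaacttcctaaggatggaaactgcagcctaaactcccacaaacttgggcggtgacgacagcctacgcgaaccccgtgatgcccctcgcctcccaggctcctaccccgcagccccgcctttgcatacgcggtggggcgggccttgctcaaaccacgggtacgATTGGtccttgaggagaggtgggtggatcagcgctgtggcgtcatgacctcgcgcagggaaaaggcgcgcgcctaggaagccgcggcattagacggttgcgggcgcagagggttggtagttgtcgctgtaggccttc
Mcm6: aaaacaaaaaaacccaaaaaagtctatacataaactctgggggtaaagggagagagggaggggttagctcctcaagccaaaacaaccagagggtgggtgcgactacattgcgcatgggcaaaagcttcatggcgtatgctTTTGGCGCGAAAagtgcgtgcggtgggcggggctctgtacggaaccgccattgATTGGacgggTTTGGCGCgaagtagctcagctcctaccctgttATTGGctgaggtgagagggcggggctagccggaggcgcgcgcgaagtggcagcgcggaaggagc
Spc25: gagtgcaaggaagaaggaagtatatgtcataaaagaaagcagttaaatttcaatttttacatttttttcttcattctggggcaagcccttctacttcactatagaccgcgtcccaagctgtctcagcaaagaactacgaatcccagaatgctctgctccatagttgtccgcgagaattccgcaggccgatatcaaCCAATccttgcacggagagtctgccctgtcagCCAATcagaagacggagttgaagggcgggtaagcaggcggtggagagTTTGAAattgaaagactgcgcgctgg
Kif23: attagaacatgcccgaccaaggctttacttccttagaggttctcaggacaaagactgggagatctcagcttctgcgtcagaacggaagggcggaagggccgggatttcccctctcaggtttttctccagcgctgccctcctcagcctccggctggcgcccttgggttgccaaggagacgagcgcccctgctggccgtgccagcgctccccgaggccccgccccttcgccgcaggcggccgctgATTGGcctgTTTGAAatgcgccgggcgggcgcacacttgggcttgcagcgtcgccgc
Mki67: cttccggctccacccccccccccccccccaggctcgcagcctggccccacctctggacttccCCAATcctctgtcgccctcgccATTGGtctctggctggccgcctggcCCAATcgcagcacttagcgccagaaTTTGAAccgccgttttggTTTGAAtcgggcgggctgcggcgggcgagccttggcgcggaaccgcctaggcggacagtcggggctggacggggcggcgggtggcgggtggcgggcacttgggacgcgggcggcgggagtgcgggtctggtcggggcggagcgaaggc
Top2a: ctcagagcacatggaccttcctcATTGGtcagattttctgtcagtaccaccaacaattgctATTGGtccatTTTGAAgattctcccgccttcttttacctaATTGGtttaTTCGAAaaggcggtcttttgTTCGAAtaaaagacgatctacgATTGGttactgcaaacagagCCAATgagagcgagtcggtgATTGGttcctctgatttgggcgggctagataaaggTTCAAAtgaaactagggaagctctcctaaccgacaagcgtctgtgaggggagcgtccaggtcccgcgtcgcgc
Ccnb1: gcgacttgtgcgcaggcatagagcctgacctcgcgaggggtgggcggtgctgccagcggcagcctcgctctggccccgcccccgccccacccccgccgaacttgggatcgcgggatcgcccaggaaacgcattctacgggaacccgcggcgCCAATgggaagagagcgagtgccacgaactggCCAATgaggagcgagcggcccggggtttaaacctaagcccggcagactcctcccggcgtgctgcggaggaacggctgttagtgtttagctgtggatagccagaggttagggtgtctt

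Read beside the RNA values, genes with and without 1 of the 2 searched CHR words in the window were found at both ends of the 7-week differences. Other spellings of the element were not searched, so a window without a match may still hold one. Ccnb1 had the highest 7-week difference after Pbk and holds a pair of CCAAT words and neither of the 2 searched CHR words. Spc25 and Kif23 hold a CHR word 24 and 2 bases after the start and had log2 fold changes of -0.11 and 0.18. Top2a holds 4 CHR words and 6 CCAAT words, and Mki67 holds 2 and 3. Pcna, whose protein is the sliding clamp of the replication fork, has 1 CCAAT word and no E2F word, while Mcm6, a subunit of the replicative helicase, has 3 E2F words that include an overlapping pair.

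The libraries held 22193736 to 32742734 counts each, so that 3 counts, the level a count of 0 allows, equalled 0.0858 to 0.282 CPM, the count scaled by library size and by a scaling factor for composition (TMM, explained with the levels). The highest limits were 0.282 and 0.167 CPM, in replicates 3 and 2 labelled Clr-f-/- at 13 weeks. Such limits cover counting error only. Counts of the targeted gene Clec2h did not follow the genotype labels. At 7 weeks they were 101, 124 and 97.1 CPM in the WT libraries and 78.3, 77.6 and 101 CPM in those labelled Clr-f-/-, and the groups also overlapped at 13 weeks (61.2, 41.3 and 23.8 against 34.7, 29.6 and 40.4 CPM) and at 24 weeks (58.9, 24.6 and 44.9 against 34.1, 15.3 and 77.0 CPM). The table gives 1 total per gene, so the deleted exons were not looked at alone, and every direction given here rests on the labels. The 3 libraries labelled Clr-f-/- at 13 weeks stood apart: they had fewer rows with counts, scaling factors down to 0.48, and fold changes that followed base composition (Spearman's rho 0.757 between GC content and log2 fold change over 13829 genes). At 24 weeks replicate 3 labelled Clr-f-/- held 18176 counts of Xist and 0 of Eif2s3y, while each of the other 17 libraries held at most 26 of Xist and at least 33 of Eif2s3y. By these counts that library was female and the other 17 male, so the 24-week comparison includes a sex difference. In bulk RNA, fewer cells of a type and less RNA per cell cannot be told apart.

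At 7 weeks the G2/M genes as a class stood higher in the libraries labelled Clr-f-/-, and the S-phase genes hardly did. Levels are given as CPM after trimmed mean of M values (TMM) scaling, and differences as log2 fold changes from edgeR. Among the genes that passed a filter of 1 CPM, before TMM scaling, in at least 3 libraries, 34 of 35 G2/M genes lay above 0 with a median log2 fold change of 1.16, and 13 of 16 S-phase genes with a median of 0.23, beside a median of 0.01 over all 14226 genes tested. The filter favours genes that are high in either group. Only 23 G2/M genes reached 1 CPM in all 3 WT libraries, against 33 in the libraries labelled Clr-f-/-. Without the filter, 39 of the 40 detected G2/M genes and 14 of 17 S-phase genes lay above 0, with median differences of 1.12 and 0.28 in mean log2(CPM + 0.1). Of the tested genes, 28 of 35 G2/M and 4 of 16 S-phase genes had every library labelled Clr-f-/- above every WT library, where 10.9% of all genes did. With edgeR's quasi-likelihood test and an adjusted p under 0.05, 1 member (Ccnb1) was called higher where 0.309% of all genes were, DESeq2 called 24 where 2.4% were, and edgeR with no filter on low counts called 34 where 2.37% were. Nothing is read from these counts, since this contrast chose the genes.

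The separation of the classes could be seen library by library. Centred on WT, the G2/M genes had medians of 1.20, 0.72 and 1.45 with the Clr-f-/- label and of -0.36, 0.25 and 0.10 in WT. The same median of the S-phase genes was 0.14, 0.11 and 0.30 against -0.13, 0.15 and 0.04. The G2/M medians did not overlap between genotypes and the S-phase medians did. Summed over all 41 genes, the G2/M class reached 171, 136 and 217 CPM in the libraries labelled Clr-f-/- against 89.4, 111 and 107 CPM in WT. The S-phase sum was 173, 167 and 205 CPM against 147, 175 and 165 CPM. The ratio of the G2/M to the S-phase sum was therefore 0.988, 0.814 and 1.06 in the first group and 0.608 to 0.648 in WT. Replicate 3 labelled Clr-f-/- was the highest of its group for 30 of 35 G2/M and 13 of 16 S-phase genes, and the median log2 fold change without it was 0.97 for G2/M and 0.12 for S phase.

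**Figure D1:**
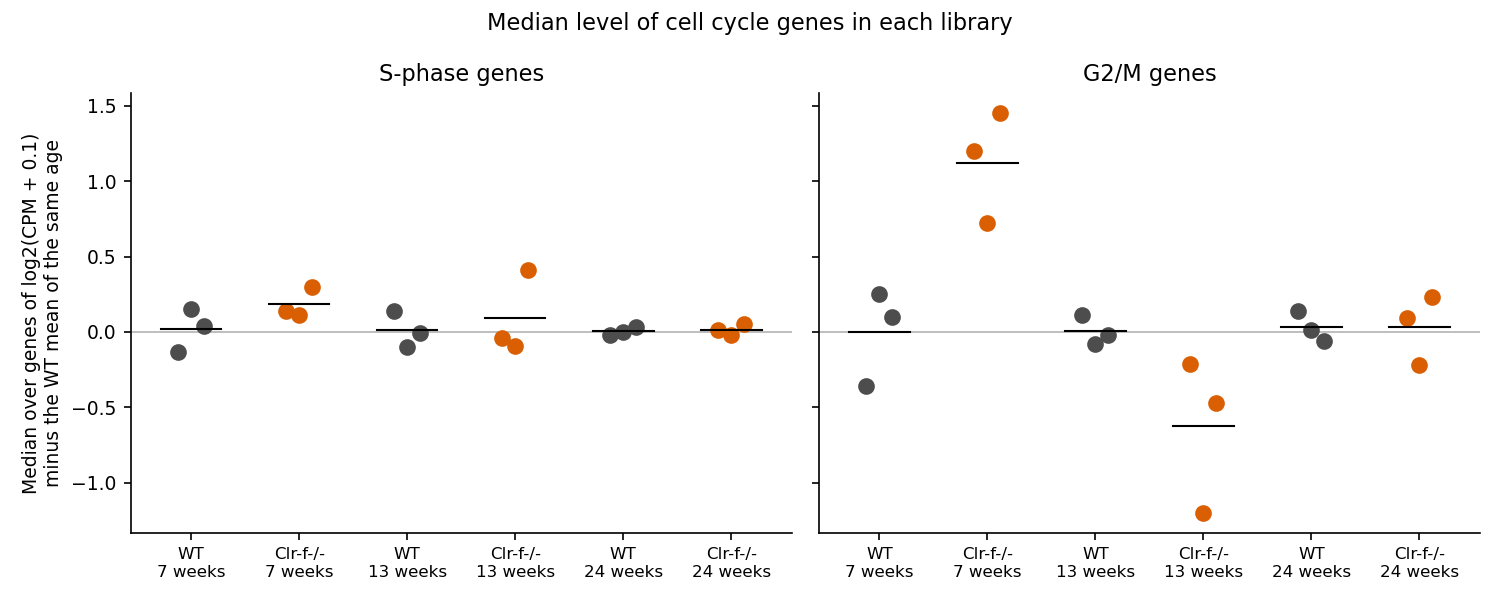
Median of the tested S-phase genes (left) and G2/M genes (right) in each library, as log2(CPM + 0.1) minus the WT mean of the same age. Grey points are WT and orange points are libraries labelled Clr-f-/-, lines are means of 3 libraries, and the 7-week G2/M points of the 2 genotypes are the pair of groups that stand apart upward, at 0.72 to 1.45 against -0.36 to 0.25.

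The proliferation marker Mki67, which coats chromosomes in mitosis, was at 12.0, 8.83 and 17.0 CPM at 7 weeks under the Clr-f-/- label and at 3.55, 5.94 and 5.09 CPM in WT. Top2a, the topoisomerase that untangles sister chromatids, was at 8.53, 6.06 and 12.7 CPM against 2.42, 4.00 and 3.72 CPM. For both genes the lowest library labelled Clr-f-/- lay above the highest WT library, with log2 fold changes of 1.40 ± 0.27 (SE, n = 3 per group) and 1.45 ± 0.29. Ccnb1, the cyclin that activates Cdk1 at mitotic entry, was at 2.81, 2.07 and 3.50 CPM against 0.648, 0.950 and 0.687 CPM, a log2 fold change of 1.90 ± 0.27 or 3.73-fold. Cdk1 itself, the mitotic kinase, was at 3.57, 2.84 and 5.77 CPM against 1.19, 2.41 and 1.95 CPM, a log2 fold change of 1.16 ± 0.33. Neither gene overlapped between the groups, which came closer for Cdk1 than for Ccnb1.

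The chromosomal passenger genes followed the same order. Aurkb, the kinase that corrects faulty chromosome attachments, was at 1.77, 1.30 and 2.69 CPM under the Clr-f-/- label and at 0.853, 0.831 and 1.12 CPM in WT. Its partner Birc5 was at 3.38, 3.26 and 3.99 CPM against 1.02, 2.06 and 1.80 CPM, and the third passenger gene of the list, Cdca8, had a log2 fold change of 0.97 ± 0.25 beside 1.05 ± 0.31 for Aurkb and 1.14 ± 0.26 for Birc5. Foxm1, a transcription factor of G2/M genes, was lower placed, at 2.34, 2.24 and 4.20 CPM against 1.23, 2.06 and 2.03 CPM (0.75 ± 0.32). Its groups did not overlap, but the gap between 2.24 and 2.06 CPM was narrow.

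The 3 highest 7-week log2 fold changes belonged to Pbk, a mitotic kinase (1.92 ± 0.37), Ccnb1 (1.90) and Ckap2l, a spindle protein (1.75 ± 0.39). The motors Kif2c (1.50 ± 0.34), Kif20a (1.06 ± 0.40) and Kif4 (0.80 ± 0.35) lay above 0 as well, although libraries overlapped for the last 2. Of the kinetochore genes, Nuf2 had 1.62 ± 0.34 and Cenpf 1.40 ± 0.35, while Spc25, a subunit of the same Ndc80 complex as Nuf2, had -0.11 ± 0.10. Spc25 was at 22.8, 20.4 and 25.2 CPM under the Clr-f-/- label and at 26.6, 25.8 and 22.5 CPM in WT, and was the only tested G2/M gene below 0. Kif23, a motor of the central spindle (0.18 ± 0.26), and Nusap1, a microtubule-bundling protein (0.13 ± 0.19), also overlapped between genotypes. These 3 genes were among the G2/M genes with the most RNA in WT kidney. Per kilobase of the longest transcript, the WT means were 11.7 CPM for Spc25, 2.27 for Kif23 and 1.26 for Nusap1, against 0.376 for Mki67, 0.285 for Ccnb1 and 0.270 for Cdk1. Cdca3 (1.17), Aurka (1.02) and Cdc20 (0.981) had levels near that of Nusap1 and log2 fold changes of 1.09, 0.69 and 1.23.

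Among the S-phase genes, the helicase subunits differed among themselves. Mcm3 had the highest 7-week log2 fold change of the class (0.78 ± 0.23), at 4.69, 5.99 and 8.61 CPM against 3.51, 4.24 and 3.69 CPM. Mcm2 was at 11.2, 11.0 and 13.7 CPM against 12.0, 15.9 and 13.8 CPM (-0.20 ± 0.13), and Mcm5 at 5.69, 5.75 and 10.3 CPM against 4.10, 5.90 and 5.98 CPM (0.47 ± 0.27). Of these 3 subunits, whose products work in 1 ring, Mcm3 alone was free of overlap. Rrm2, the regulated subunit of ribonucleotide reductase, was at 7.73, 6.24 and 11.1 CPM against 4.40, 5.94 and 6.24 CPM (0.61 ± 0.23), with its lowest library labelled Clr-f-/- level with the highest in WT. Pcna was at 32.5, 37.6 and 36.6 CPM against 30.7, 34.7 and 35.1 CPM (0.10 ± 0.08), and Tk1, a salvage kinase for thymidine, at 10.9, 8.41 and 9.85 CPM against 9.11, 10.2 and 8.15 CPM (0.10 ± 0.13). Both sets overlapped. Ccne1, the cyclin of S-phase entry, was at 0.961, 1.33 and 0.997 CPM against 0.717, 0.910 and 0.772 CPM (0.47 ± 0.24), a low level with no overlap. The transcription factor E2f1 was at 4.77, 3.96 and 5.56 CPM against 3.72, 5.15 and 4.58 CPM (0.11 ± 0.18), and its groups overlapped. The lowest values of the class were those of the licensing factor Cdt1 (-0.25 ± 0.23), Mcm2 and Mcm7 (-0.05 ± 0.08).

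At 7 weeks 7 of the 58 genes failed the filter. Kif11, a spindle motor, had 0 counts in all 18 libraries, which allows at most 0.0858 to 0.282 CPM in a library. Cdc6 of S phase and Bub1, Ttk, Ndc80, Melk and Cdkn3 of G2/M were detected, at 0.614 to 0.831 CPM in WT for Ndc80 and at 0.171 to 0.594 CPM for the others. Each reached its highest 7-week value in replicate 3 labelled Clr-f-/-, from 1.15 CPM (Ttk) to 2.08 CPM (Ndc80).

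**Figure D2:**
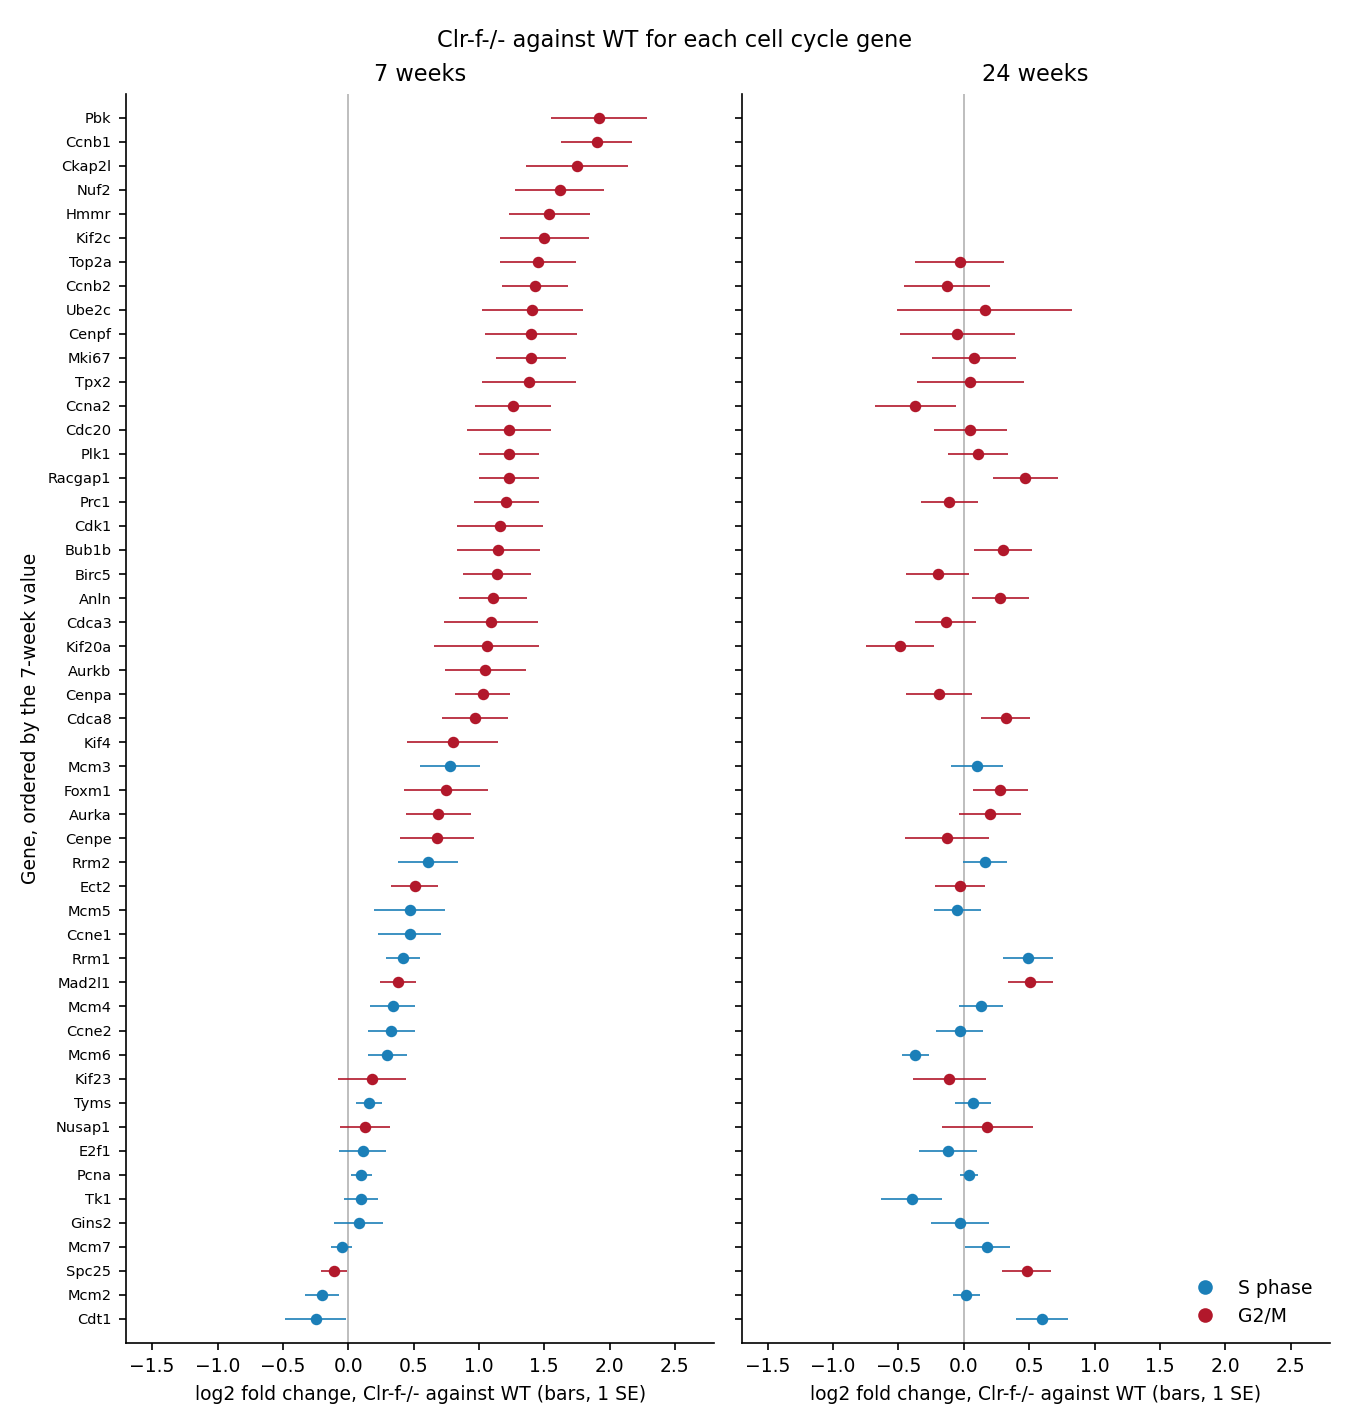
Log2 fold change of each tested gene between libraries labelled Clr-f-/- and WT at 7 weeks (left) and 24 weeks (right), in the order of the 7-week values, with bars of 1 SE. Blue points are S-phase and red points G2/M genes, genes without a point at 24 weeks did not pass the filter there, among them the 6 highest of 7 weeks. The 24-week values lie between -0.49 and 0.60, and the 7-week values between -0.25 and 1.92.

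At 24 weeks the difference seen at 7 weeks was not detectable. The median log2 fold change was 0.05 over 26 tested G2/M genes and 0.04 over 15 S-phase genes, beside 0.02 over all 14270 genes. Of these 41 genes, 23 lay above and 18 below 0. The filter left out several genes that were highest at 7 weeks, such as Pbk, Ccnb1 and Ckap2l. Without it, 19 of 40 detected G2/M genes lay above and 21 below 0, with a median difference of -0.03 in mean log2(CPM + 0.1). None of the 41 tested genes passed an adjusted p of 0.05 in either direction in edgeR's quasi-likelihood test, where 0.028% of all genes were called higher and 0.021% lower, and DESeq2 called none of the list, where it called 2.06% of all genes higher and 2.54% lower. At an unadjusted p under 0.05, 4 were higher, against 9.75% of all genes, and 1 lower, against 8.47%. Every library labelled Clr-f-/- lay above WT for 4 genes, Cdt1, Cdca8, Mad2l1 and Spc25, against 12.1% of all genes, and below WT for 2, Mcm6 and Kif20a, against 14.7% of all genes.

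The levels of the marker genes overlapped at this age. Mki67 was at 3.17, 2.08 and 5.01 CPM under the Clr-f-/- label and at 3.51, 3.30 and 3.16 CPM in WT (0.08 ± 0.32, adjusted p = 0.927 by edgeR). Top2a was at 2.26, 1.54 and 3.85 CPM against 2.65, 2.86 and 2.47 CPM (-0.03 ± 0.34, adjusted p = 0.979 by edgeR). For both genes the WT libraries sat inside the range of the libraries labelled Clr-f-/-, whose highest value was that of replicate 3. Ccnb1 was at 0.579, 0.323 and 0.895 CPM against 0.600, 0.903 and 0.618 CPM, and Cdk1 at 0.854, 0.574 and 1.19 CPM against 0.885, 0.863 and 0.825 CPM. Aurkb was at 0.732, 0.574 and 0.775 CPM against 0.600, 0.275 and 0.481 CPM. Ccnb1, Cdk1 and Aurkb fell under the filter and were not tested. Birc5 was at 0.945, 1.04 and 1.01 CPM against 1.48, 1.06 and 0.962 CPM (-0.20 ± 0.24), and Foxm1 at 1.52, 1.08 and 1.28 CPM against 1.07, 1.06 and 1.13 CPM (0.28 ± 0.21). Both overlapped.

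The S-phase genes were as close. Pcna was at 32.7, 31.9 and 33.8 CPM against 33, 32.6 and 32.0 CPM, and Mcm2 at 12.6, 11.5 and 11.9 CPM against 11.2, 13.0 and 12.0 CPM. Mcm5 was at 5.73, 3.77 and 5.01 CPM against 4.96, 5.18 and 5.26 CPM, and Rrm2 at 3.93, 4.06 and 5.13 CPM against 3.95, 4.32 and 3.75 CPM. All 4 overlapped. Tk1 was at 5.89, 10.6 and 7.49 CPM against 12.4, 9.61 and 10.1 CPM, E2f1 at 3.35, 3.73 and 2.53 CPM against 4.33, 2.94 and 3.30 CPM, and Ccne1, under the filter, at 0.823, 0.287 and 0.596 CPM against 0.695, 0.432 and 0.550 CPM. The 3 highest log2 fold changes of the list were those of Cdt1 (0.60 ± 0.20, adjusted p = 0.219 by edgeR), the spindle checkpoint gene Mad2l1 (0.51 ± 0.17) and Rrm1 (0.49 ± 0.19), and the 3 lowest those of Kif20a (-0.49 ± 0.26), Tk1 (-0.40 ± 0.23) and Mcm6 (-0.37 ± 0.10, adjusted p = 0.174 by edgeR). Without replicate 3 labelled Clr-f-/-, the library with the Xist counts, edgeR called Cdt1 higher (log2 fold change 0.78, adjusted p = 0.0386), which was 1 member where 1.04% of all genes were called higher and 1.02% lower.

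Between the mice of 7 and of 24 weeks the G2/M level differed by more under the Clr-f-/- label than in WT. This is given as values only, because the 7-week libraries chose the genes. A larger step under that label follows in part from the choice. The G2/M sum went from 136 to 217 CPM at 7 weeks to 76.2 to 105 CPM at 24 weeks in the libraries labelled Clr-f-/-, and from 89.4 to 111 CPM to 78.9 to 86.3 CPM in WT. Over the 35 genes tested at 7 weeks, the median change in mean log2(CPM + 0.1) from 7 to 24 weeks was -1.37 in the first and -0.35 in the second, and 34 and 28 of the 35 genes were lower. These 35 genes had passed the 7-week filter, which favours genes high in either group, and the share over all genes was not computed. Most of the WT step lay between 7 and 13 weeks, with a median of -0.29 and 30 of 35 genes lower, and the step from 13 to 24 weeks was 0.03. The S-phase medians of these steps in WT were 0.03 and -0.03.

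Between WT mice of 13 and 24 weeks no gene of the list passed the edgeR test. The median log2 fold change was 0.03 over 26 G2/M and -0.03 over 15 S-phase genes. No member was called, where 0.383% of all genes were called higher and 0.0497% lower. At an unadjusted p under 0.05, 1 was higher, against 8.29% of all genes, and 5 lower, against 6.31%. DESeq2 called 1 lower, Mcm2, where it called 0.695% of all genes lower, and edgeR with no filter called Mcm2 lower where 0.746% were. Mcm2 was at 16.7, 14.6 and 17.1 CPM at 13 weeks and at 11.2, 13.0 and 12.0 CPM at 24 weeks, without overlap, a log2 fold change of -0.43 ± 0.10 with an adjusted p of 0.125 by edgeR. The lowest values were those of Cdca8 (-0.67 ± 0.19), Cdt1 (-0.46 ± 0.14) and Mcm2, and the highest those of the centromeric histone Cenpa (0.46 ± 0.18), Kif23 (0.37 ± 0.20) and Ccna2, a cyclin of S and G2 phase (0.36 ± 0.22). Libraries did not overlap for 2 genes that were higher at 24 weeks, against 9.68% of all genes, and for 6 that were lower, against 9.89%.

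**Figure D3:**
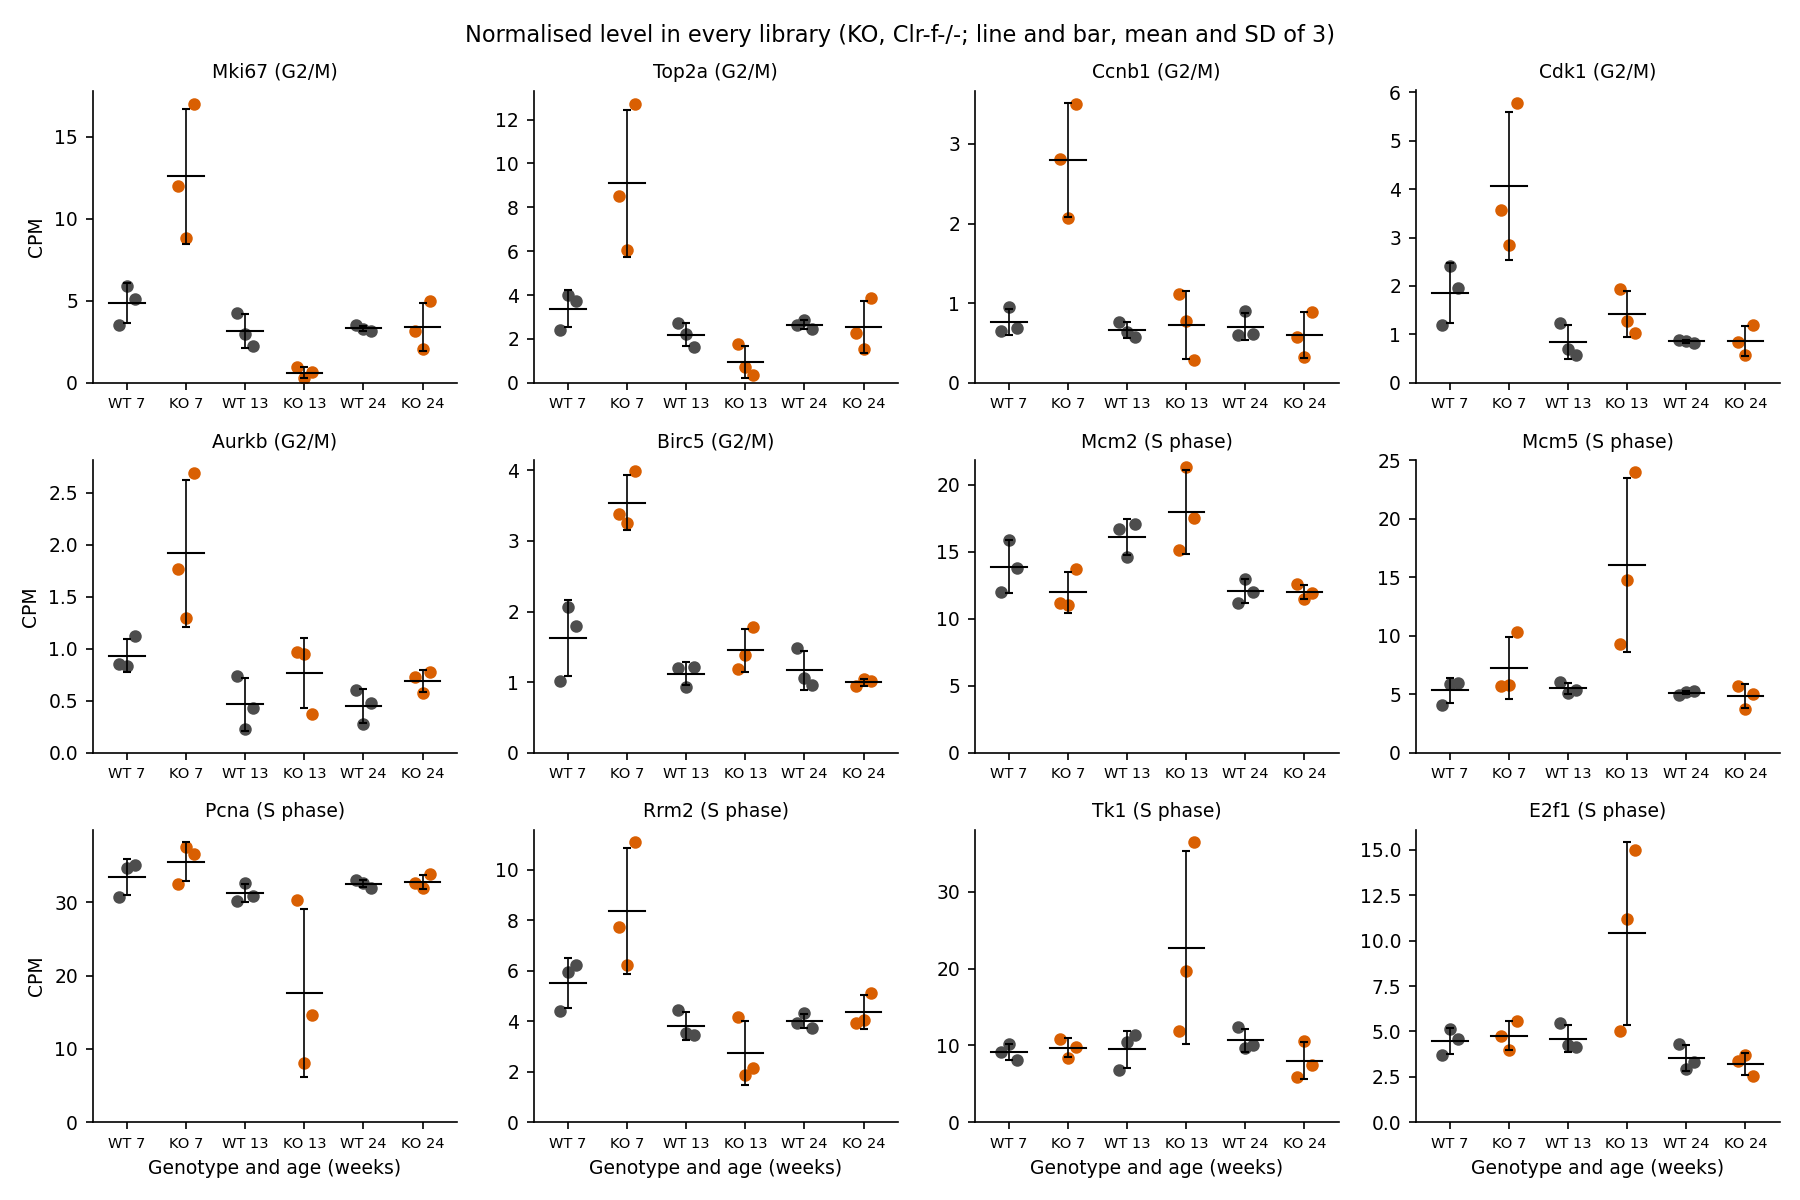
CPM of 12 genes in each of the 18 libraries, with the 3 libraries of a genotype and age side by side, a line at their mean and a bar of 1 SD. Grey points are WT and orange points are libraries labelled Clr-f-/- (KO). The 6 G2/M genes of the plot stand apart at 7 weeks, as in Mki67 at 8.83 to 17.0 CPM against 3.55 to 5.94 CPM, while Pcna spreads from 8.07 to 30.3 CPM in the 13-week libraries labelled Clr-f-/-.

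At 13 weeks the genes differed in both directions, and the direction went with base composition. The median log2 fold change was -0.76 over 22 tested G2/M genes and 0.12 over 15 S-phase genes, beside -0.04 over all 13864 genes. Across the 37 genes Spearman's rho between GC content and log2 fold change was 0.841, and the exons of the G2/M genes held less GC (median 46.1%) than those of the S-phase genes (51.7%), with 49.8% over all genes tested. With offsets that remove each library's trend with GC content and length, that rho was 0.191 and the medians were 0.08 and 0.17. The part of base composition in the remaining differences was not tested. By edgeR's quasi-likelihood test 3 genes were called higher, where 21.9% of all genes were, and 5 lower, where 16.9% were. With the offsets 1 was called higher (5.68% of all genes) and none lower (3.03%). At an unadjusted p under 0.05, 9 were higher before the offsets, against 29.9% of all genes, and 9 lower, against 27%, and DESeq2 without them called 9 higher, where 31.6% of all genes were, and 8 lower, where 24.6% were. Of the 37 genes, 3 higher and 5 lower are smaller shares than those of all genes. Every library labelled Clr-f-/- lay above WT for 9 genes, against 33.5% of all genes, and below WT for 12, against 35.4%. Without replicate 1 labelled Clr-f-/-, 27 of 34 were called, 11 higher, where 37.3% of all genes were, and 16 lower, where 41.9% were. Without any other of the 6 libraries none was called, where 0 or 1 of all genes was.

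The genes called higher were Mcm5 (1.50 ± 0.38), the helicase assembly factor Gins2 (2.35 ± 0.62) and Cdc20, the activator of the anaphase-promoting complex (1.63 ± 0.38), each with an adjusted p of 0.0400 by edgeR. Mcm5 was at 9.27, 14.8 and 24.0 CPM under the Clr-f-/- label and at 6.05, 5.10 and 5.34 CPM in WT. Gins2 was at 3.00, 5.07 and 14.9 CPM against 1.20, 1.25 and 1.86 CPM, but its annotated exons share 2758 bases with Gse1 on the opposite strand, and reads of the pair cannot be told apart without strand. The same holds for Kif20a (1271 exon bases shared with Cdc23), Prc1 (911 with Rccd1), Kif4 (832 with Pdzd11) and Ccne2 (609 with Ints8). For Mcm5 and Gins2 the groups did not overlap, and the values under the Clr-f-/- label differed by more than those within WT. With the offsets the log2 fold changes were 1.15 for Mcm5 (adjusted p = 0.0589 by edgeR), 1.81 for Gins2 (0.0653) and 0.56 for Cdc20 (0.133).

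The genes called lower were Ccne2, a cyclin of S-phase entry (-2.86 ± 0.58), Mki67 (-2.32 ± 0.50), Spc25 (-2.02 ± 0.55), Cenpe, a kinetochore motor (-1.42 ± 0.43), and Mcm4 (-1.37 ± 0.43), with adjusted p of 0.0400 to 0.0445 by edgeR. Mki67 was at 0.939, 0.278 and 0.657 CPM under the Clr-f-/- label and at 4.28, 2.98 and 2.22 CPM in WT. Spc25 was at 10.1, 2.56 and 3.19 CPM against 19.7, 18.7 and 25.6 CPM. Neither gene overlapped between groups. Ccne2 was at 0.273, 0.0557 and 0.469 CPM against 2.11, 1.54 and 1.72 CPM, also without overlap. Its counts under the Clr-f-/- label were 9, 1 and 5, close to or under the limit of 3 counts. With the offsets the log2 fold changes were -0.96 for Ccne2, -1.31 for Mki67, -0.87 for Spc25, 0.43 for Cenpe and -0.49 for Mcm4, with adjusted p of 0.0653 to 0.563 by edgeR, so that none remained called and Cenpe changed sign. The gene called with the offsets was Racgap1, a regulator of cytokinesis (1.64, adjusted p = 0.0463 by edgeR), which was at 2.88, 2.67 and 2.91 CPM against 2.17, 1.57 and 1.47 CPM and had 0.67 ± 0.31 before them (adjusted p = 0.108).

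The other genes named at each age showed how far the 13-week libraries labelled Clr-f-/- differed among themselves. Pcna was at 30.3, 8.07 and 14.6 CPM in them and at 30.2, 32.6 and 30.9 CPM in WT (-0.85 ± 0.46). Tk1 was at 11.9, 19.7 and 36.5 CPM against 6.82, 10.4 and 11.4 CPM (1.20 ± 0.45), and E2f1 at 5.00, 11.2 and 15.0 CPM against 5.45, 4.27 and 4.12 CPM (1.13 ± 0.43). In Pcna and E2f1 replicate 1 lay with the WT libraries and the other two did not. Top2a was at 1.79, 0.724 and 0.376 CPM against 2.71, 2.21 and 1.65 CPM (-1.11 ± 0.55), and Rrm2 at 4.18, 1.89 and 2.16 CPM against 4.45, 3.53 and 3.44 CPM (-0.48 ± 0.39). Mcm2 was at 15.1, 21.3 and 17.5 CPM against 16.7, 14.6 and 17.1 CPM (0.12 ± 0.26). None of these 6 passed the edgeR test with the 6 libraries of this age. Without replicate 1 labelled Clr-f-/-, where 79.1% of all genes were called, edgeR called Pcna, Tk1, E2f1, Top2a and Rrm2 (adjusted p of 0.00172 to 0.011), and in the fit of all 18 libraries, where 74.1% were, it called the first 4 of them (0.00397 to 0.0457). DESeq2 called Tk1 and E2f1. Birc5 was at 1.18, 1.39 and 1.78 CPM against 1.20, 0.931 and 1.22 CPM (0.33 ± 0.34). With the offsets Top2a (0.30), Rrm2 (0.17), E2f1 (-0.09) and Mcm2 (-0.16) lay on the other side of 0, and Pcna was at -0.19, Tk1 at 0.73 and Birc5 at 0.90. Of the 37 tested genes, 14 changed sign with the offsets. Foxm1, Cdk1, Ccnb1, Aurkb and Ccne1 fell under the filter and were not tested. Foxm1 was at 2.27, 1.34 and 1.31 CPM against 1.44, 0.963 and 0.789 CPM. Cdk1 was at 1.94, 1.28 and 1.03 CPM against 1.24, 0.706 and 0.574 CPM, and Ccnb1 at 1.12, 0.780 and 0.282 CPM against 0.769, 0.642 and 0.574 CPM. These 3 genes overlapped between groups. Aurkb was at 0.969, 0.947 and 0.376 CPM against 0.736, 0.225 and 0.430 CPM, and also overlapped. Ccne1 was at 1.15, 1.67 and 1.50 CPM against 0.803, 0.546 and 0.287 CPM, with no overlap. The lowest G2/M value was that of Anln, a scaffold of the cleavage furrow (-2.52 ± 0.89, adjusted p = 0.0554 by edgeR), which was at 0.454, 0 and 0 CPM in the libraries labelled Clr-f-/-, where the zeros allow up to 0.167 and 0.282 CPM. Anln was called lower with DESeq2 (adjusted p = 0.0263), with no filter (0.0404), in the fit of all 18 libraries (0.00156) and without replicate 1 labelled Clr-f-/- (0.000909), and not with the offsets (-1.68, adjusted p = 0.118 by edgeR). Without replicate 1 both remaining libraries are at 0, and the fitted log2 fold change of -7.82 is no bound.

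**Figure D4:**
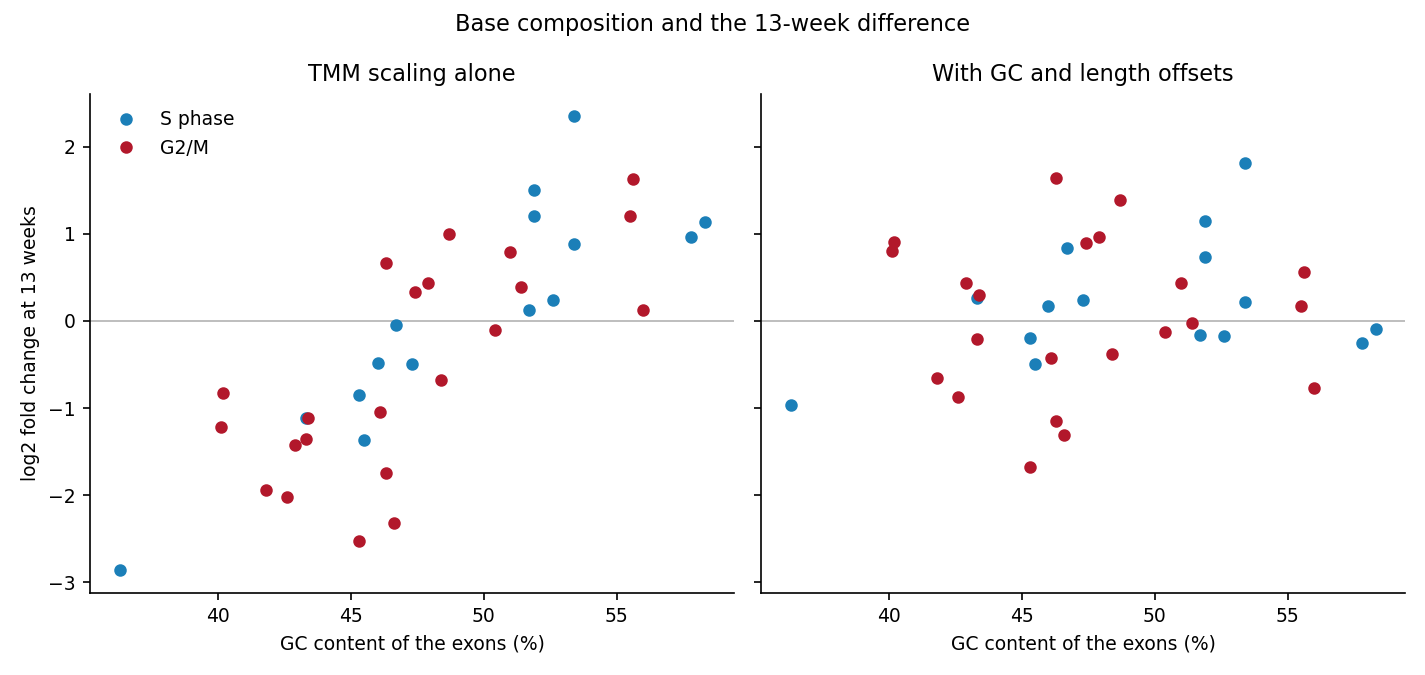
Log2 fold change between libraries labelled Clr-f-/- and WT at 13 weeks against the GC content of the exons, for the 37 tested genes. Blue points are S-phase and red points G2/M genes, with TMM scaling alone on the left (rho 0.841) and with GC and length offsets on the right (rho 0.191).

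The difference between the 24-week and 13-week effects was tested directly in edgeR over 43 genes. It was higher at 24 weeks for 6 genes, where 19.7% of all genes were called, and lower for 6, where 22.9% were. With GC and length offsets it was called for 3 of the list, Spc25 (1.38), Mcm5 (-1.26) and Cenpa (-1.64), with adjusted p of 0.0261, 0.0423 and 0.0487, where 8.37% of all genes were called higher and 12.1% lower.

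Other genes of the same pathways were taken from lists written by hand, and their 7-week values are likewise a description. Of 28 tested genes among 45 other mitosis genes, 24 lay above 0 with a median of 0.42, led by Esco2, a cohesin acetyltransferase (1.62 ± 0.52), and the cyclin Ccnf (1.33 ± 0.46), both named after their values were seen. Of 39 tested among 43 other replication genes, 28 lay above 0 with a median of 0.09. The mitosis list thus stood between the G2/M genes and the background of 0.01, and the replication list near that background. Abundant mitosis genes lay close to 0, such as Pttg1, or securin, at -0.04 ± 0.06 and Bub3 at 0.09 ± 0.05. All 6 tested CDK inhibitors lay above 0 (median 0.39), and Cdkn1a, the p21 inhibitor, was at 11.5, 8.27 and 13.3 CPM against 5.77, 5.62 and 6.12 CPM. The medians were 0.14 for 12 p53 targets, -0.00 for 11 G1 cyclins and kinases, and -0.01 for 13 pocket protein and E2F repressor genes. At 24 weeks none of the tested genes of these 6 lists was called, where 0.028% of all genes were called higher and 0.021% lower, and the medians ran from -0.09 (p53 targets) to 0.21 (CDK inhibitors). Between WT ages none was called either. At 13 weeks, with TMM scaling alone, edgeR called 3 replication genes higher and 3 lower, 1 mitosis gene higher and 4 lower, 2 CDK inhibitors higher, 2 G1 genes in each direction, 3 pocket protein genes higher and 4 lower, and 3 p53 targets higher and 2 lower, where 21.9% of all genes were called higher and 16.9% lower. The condensin genes Smc2 (-3.10), Smc4 (-2.65) and Ncapg2 (-2.58) fell, as did Orc4 of the origin recognition complex (-2.24), Rb1, the retinoblastoma protein (-2.17), and Trp53inp1 (-2.78). Pold2, a subunit of DNA polymerase delta (2.01), the D-type cyclin Ccnd3 (1.68) and the CDK inhibitors Cdkn1a (2.40) and Cdkn1c (1.31) rose. With the offsets the values of the genes that rose were 0.48, 0.71, 1.51 and -0.01. Those of the genes that fell were -1.42 for Smc2, -0.71 for Smc4, -1.50 for Ncapg2, -0.34 for Orc4, -0.51 for Rb1 and -0.95 for Trp53inp1. The offsets moved the list medians from -0.43 to 0.03 for replication, from -0.24 to -0.02 for mitosis, from -0.99 to -0.21 for pocket proteins and E2F repressors and from 1.00 to -0.13 for CDK inhibitors, whereas those of p53 targets went from -0.28 to -0.37 and those of G1 cyclins and kinases from -0.05 to 0.22.

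Marker genes of kidney cell types also differed at 7 weeks beside the G2/M genes. All 6 fibroblast and pericyte markers lay above 0 (median log2 fold change 0.75, 3 called higher, where 0.309% of all genes were), with a summed level of 312 to 362 CPM in the libraries labelled Clr-f-/- against 171 to 218 CPM in WT. All 5 tested erythroid markers lay above 0 (median 1.27, none called), with sums of 153 to 474 CPM against 80.6 to 185 CPM, and all 6 endothelial markers did (median 0.45), with sums of 267 to 351 CPM against 206 to 253 CPM. The fibroblast and endothelial sums did not overlap and the erythroid sums did. Of the other lists, all 5 podocyte markers lay above 0 (median 0.34; sums of 331 to 364 against 249 to 306 CPM) and so did all 5 tested markers of injured tubule (median 0.78, with sums of 304 to 398 against 294 to 414 CPM). Proximal tubule markers had a median of -0.22 (3 of 9 above 0), pan-leukocyte markers -0.21 (1 of 4 above 0) and macrophage and dendritic cell markers 0.24 (5 of 6 above 0). The neutrophil markers summed to at most 0.350 CPM, with Ly6g at 0 in all 6 libraries. T cell markers summed to 3.07 to 4.02 CPM against 2.55 to 3.38 CPM, and B cell and plasma cell markers to 5.08 to 5.15 CPM against 5.23 to 5.70 CPM. At 24 weeks the fibroblast sums were 130 to 242 CPM against 227 to 234 CPM and the erythroid sums 117 to 180 CPM against 274 to 328 CPM. The macrophage and dendritic cell sums were 111 to 115 CPM against 131 to 133 CPM. The erythroid and macrophage sums, 2 of 14, were below WT without overlap and none was above. At 13 weeks, pan-leukocyte markers summed to 33.6 to 184 CPM against 30.4 to 38.8 CPM and adipocyte markers to 51.7 to 1190 CPM against 43.7 to 51.3 CPM. At the same age erythroid markers summed to 565 to 4370 CPM against 116 to 301 CPM, and all 5 tested were called higher (median log2 fold change 3.39), where 21.9% of all genes were. Proximal tubule markers summed to 18400 to 37700 CPM against 14600 to 16400 CPM, collecting duct markers to 1040 to 1960 CPM against 486 to 520 CPM, and macrophage and dendritic cell markers to 132 to 340 CPM against 108 to 118 CPM. None of these 4 sums overlapped, and neither did those of loop and distal tubule (4550 to 5190 against 4020 to 4470 CPM), endothelium (265 to 316 against 197 to 260 CPM), T cells (3.82 to 9.86 against 2.33 to 3.44 CPM) and adipocytes, so that 8 of 14 sums were higher without overlap. Of the 9 proximal tubule markers, 6 lay above and 3 below 0, with 4 called higher and 1 lower. The part of these cell types in the values of the list was not tested.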

How the data were processed

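Total kidney RNA was sequenced as paired ends on an Illumina HiSeq instrument. Per the study's methods and processing notes, reads were checked with FastQC (version 0.11.5) and the Fastx-toolkit, aligned with STAR (version 2.7.5a) to GRCm38.p6 with GENCODE M25 and freed of duplicates, and the authors tested with DESeq2 (version 1.28.1). The authors deposited 1 table for 53383 rows, of which 41967 carry gene and 11416 transcript IDs. The table is named as FPKM, but its values are whole numbers with a different total in each library (22193736 to 32742734), and these deposited values were taken as raw counts, on which every CPM and p-value here rests. Strand and the treatment of reads with several matches are not given in the sources used here.

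Counts were fitted with edgeR (version 4.0.16, R version 4.3.3; quasi-likelihood test, TMM scaling, Benjamini-Hochberg adjustment over all genes tested, threshold 0.05) on the groups of each comparison. Genes with at least 1 CPM, by library total, in at least 3 libraries were tested, and scripts were tested on simulated data. GC and length offsets were natural splines with 5 degrees of freedom per library, from GENCODE M21 gene models. Alternatives were other scalings, no or a stricter filter, DESeq2 (version 1.42.0), 1 fit of all 18 libraries, the offsets, a replicate block and leaving out each library. Medians per library used log2(CPM + 0.1). Libraries differed by more than sampling noise (chi-square per degree of freedom at least 5.97), so none was counted as a duplicate, and p-values measure the spread between 3 mice per group.

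The genes and all lists were chosen with earlier results of these data known. Values in every library were given for 14 genes with defined places in the cell cycle, to which the 3 highest and 3 lowest of each comparison, genes past the threshold and genes under the filter were added. From the other lists, up to 4 genes past the threshold with the largest log2 fold change in size were named. Other genes were named after their values were seen. Promoter windows from RefSeq were searched for all 49 genes with an entry and printed for 5 of those among the 4 of each class with the highest mean level, and for Top2a and Ccnb1, chosen after their values were seen.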

Additional observations from a re-analysis of the deposited data

Results flagged for a closer look

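For 12 genes the effect of genotype differed between 13 and 24 weeks by the edgeR interaction test at an adjusted p under 0.05, where 19.7% of all genes were called higher at 24 weeks and 22.9% lower. The log2 fold change was higher at 24 weeks than at 13 weeks for Ccne2 by 2.79, Anln by 2.71, Spc25 by 2.44, Mki67 by 2.33, Mad2l1 by 1.67 and Mcm4 by 1.45. The difference was -2.42 for Gins2, -1.64 for Tk1, -1.62 for Cdc20, -1.60 for Mcm5, -1.23 for Cenpa and -0.97 for Cdca3. The 13-week libraries labelled Clr-f-/- are those whose fold changes followed GC content, and with the offsets the differences of Spc25, Mcm5 and Cenpa were still called.

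For Cenpf, Prc1 and Ect2 every library labelled Clr-f-/- lay above every WT library at 7 weeks and below at 13 weeks. Of all genes tested, 10.9% lay above without overlap at 7 weeks and 35.4% below at 13 weeks. The share that did both was not computed. The difference in mean log2(CPM + 0.1) at 13 weeks was -1.82 for Cenpf, -1.79 for Prc1 and -1.12 for Ect2, after 1.33, 1.10 and 0.48 at 7 weeks. At 13 weeks under the Clr-f-/- label, Cenpf had 16, 1 and 2 counts and Prc1 39, 5 and 1. Their 13-week differences therefore depend on the added 0.1 CPM. Ccne2, Mki67, Mad2l1 and Anln had the same opposite order. With the GC and length offsets the 13-week log2 fold change was 0.91 for Ect2, 0.80 for Mad2l1, -0.21 for Prc1, -0.96 for Ccne2, -1.31 for Mki67 and -1.68 for Anln, none of them called, and the values of Ect2 and Mad2l1 lay above 0. Cenpf was under the filter at 13 weeks and has no such value. The differences between 7 and 13 weeks were not tested, since the 7-week libraries chose the genes.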

How the results depend on the processing

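At 7 weeks 1 member was called. The count was 34 with no filter on low counts (4.22% of all genes in either direction) and 24 with DESeq2 (4.66%). It was 0 with all 18 libraries in 1 fit (0.0141%), 0 with the replicate block (0.745%), and 0 to 1 with a library left out (0.0495% to 1.44%). Without replicate 3 labelled Clr-f-/- it was 0 (0.143%). The medians of both classes kept their sign under every alternative run at 7 weeks, which supports nothing, since this contrast chose the genes. At 13 weeks 8 were called, where 38.7% of all genes were. Library totals gave 0, where 0 of 13864 genes were called, and DESeq2 17, where 56.1% were. All 18 libraries gave 24 (64.9% of 37, where 74.1% of all genes were called). GC and length offsets gave 1 (Racgap1), where 8.71% of all genes were called. The block with these offsets gave 1 (Gins2, adjusted p = 0.0449 by edgeR, while Racgap1 had 0.0582), where 9.36% were. Anln was called with the block (-3.14, adjusted p = 0.0415). With a library left out the 13-week count ran from 0 to 27, and over all genes from 0 to 10838 of 13699. The S-phase median at 13 weeks (0.12) was -0.45 with library totals, -0.03 with upper quartile scaling and 0.03 to 0.27 with a library left out. The G2/M median (-0.76) was -1.20 with library totals, 0.27 with at least 10 counts in every library, 0.08 with the offsets, 0.05 with block and offsets, and -1.39 to -0.17 with a library left out. Library totals moved the median of all genes to -0.55 at 13 weeks and upper quartile scaling to -0.17. Relative to all genes, the S-phase median was 0.10 to 0.16 and the G2/M median -0.72 to -0.65 under the 4 scalings. Cenpe at 13 weeks turned to 0.43 with the offsets and 0.34 with block and offsets. At 24 weeks the S-phase median (0.04) was 0.12 with library totals and 0.01 to 0.07 with a library left out, and the count of 0 became at most 1. The 24-week G2/M median (0.05) was -0.04 with the block and ran from -0.06, without replicate 3 labelled Clr-f-/-, to 0.23, without its replicate 2, and was -0.05 without WT replicate 3. Mki67 at 24 weeks (0.08) was -0.31 without replicate 3 labelled Clr-f-/-. Between WT ages the count of 0 became 1 with no filter and 1 with DESeq2, and the G2/M median (0.03) ran from -0.05 to 0.13 with a library left out. For the difference between 13 and 24 weeks (12 called), library totals gave 4, the offsets 3, block and offsets 1, and leaving out a library 4 to 24, where 13.7%, 20.4%, 13.6% and 17.8% to 74.3% of all genes were called. The 24 were without replicate 1 labelled Clr-f-/- of 13 weeks. Its S-phase median (-0.15) was 0.04 with upper quartile scaling, 0.55 with library totals, 0.01 with at least 10 counts in every library and -0.20 to 0.01 with a library left out. Its G2/M median (0.49) was 1.07 with library totals, -0.07 with at least 10 counts, -0.11 with the offsets, -0.21 with block and offsets, and 0.13 to 0.87 with a library left out. These medians of the difference were added after seeing the data. Mad2l1 turned from 1.67 to -0.32 with the offsets and -0.35 with block and offsets. The cause of these shifts was not tested. Replicate numbers did not pair the samples (correlations of deviations from -0.239 to 0.255), and the block gave 10 calls at 13 weeks (27% of 37, where 33.9% of all genes were called) and 11 for the difference (25.6% of 43, against 36.1%). Depth limits genes near 3 counts, or 0.0858 to 0.282 CPM.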
